A study of Mus musculus with 6 samples.

Results

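The genes described here are 40 mouse genes of squamous differentiation and of the cornified envelope, out of 22180 genes that could be named and tested on the arrays. They were chosen by name as members of this programme, with no threshold on their values but with earlier results of these data known. All 40 had exactly 1 probe set with a single gene symbol. The RNA came from mammary stem cells, epithelial cells of the mouse mammary gland kept as 3-dimensional organoids. It was hybridised to 6 single-channel Affymetrix arrays, 3 from Mll3-null and 3 from wild-type (WT) cells. The cell lines were made by CRISPR, and MLL3, the product of Kmt2c, methylates histone H3 at enhancers. The labels call the arrays of a group biological replicates but do not say whether they are separate lines, clones or cultures of a line. The p-values therefore measure the spread between these samples, which may be partly technical.

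As background, stratified epithelia renew from a basal layer whose daughters move up, switch to suprabasal keratins and finally die as flat cornified cells. In that course involucrin, envoplakin, periplakin and the small proline-rich proteins are laid under the membrane and cross-linked by transglutaminases into the cornified envelope. Loricrin and filaggrin follow in the granular layer, and kallikrein proteases later cut the junctions that hold the dead cells together. The mammary epithelium is a bilayer of luminal and basal cells that shares many basal genes with the epidermis but does not normally cornify. Squamous differentiation is nevertheless known in cultured mammary cells and in mammary metaplasia.

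The arrays had closely similar scales, with medians from 4.35 to 4.40 on the log2 scale. Luminal and basal mammary markers were both present, with 9 of 9 measured members of each list above background. Mll3-null replicate 3 stood apart from the other arrays. Its basal markers averaged 5.53, against 8.45 and 8.52 in Mll3-null replicates 1 and 2 and 7.84 to 8.49 in the WT arrays (mean log2 level of 9 genes). Its 9 luminal markers averaged 9.35, inside the range of the WT arrays (8.85 to 9.4), but single markers went both ways. Krt7, Cldn4 and Epcam lay below every WT array, Krt8, Krt18, Elf5 and Kit above, and Krt19 and Cldn3 inside the WT range. Epcam did so only barely, at 10.7206 against 10.7218 in WT replicate 1. Mll3-null replicate 2 also lay below every WT array for Krt7 (9.40) and above for Elf5 (8.51) and Kit (8.76). Its Krt8, Krt18 and Epcam lay inside the WT range. Cldn4 was lower on every Mll3-null array than on any WT array, with a difference of -1.58 log2 units between the group means. Near background lay 5 of 6 immune, 3 of 4 endothelial and 3 of 8 fibroblast markers, and none of the 36 measured markers of these 5 lists passed the corrected test in either direction. The targeted gene Kmt2c read 5.84, 6.42 and 6.07 in Mll3-null cells, against 6.63, 5.58 and 5.82 in WT cells, and the groups overlapped. The place of its probe set relative to the altered sequence is not known here, and its level is therefore no check of the labels.

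About as large a share of these genes as of all genes read near background, and 26 of the 40 had a mean above it in at least 1 group. No detection calls were used, so a background limit was set at 4.29, the 95th percentile of the mean log2 values of 1405 chemosensory receptor genes, which are not known as genes of mammary epithelium. Of the 40 genes, 14 (35%) had a mean below this limit in both groups, against 37.7% of all genes. They were 8 of the 14 late cornified genes, 6 of the 18 early suprabasal genes and 0 of the 8 regulators and other stratified epithelial genes. With a fixed limit of 4 there were 9 such genes and with 5 there were 19. Levels of different probe sets are not on a common scale between genes, so a level near the limit says only that the probe set could not be told from an unexpressed one.

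**Figure D1:**
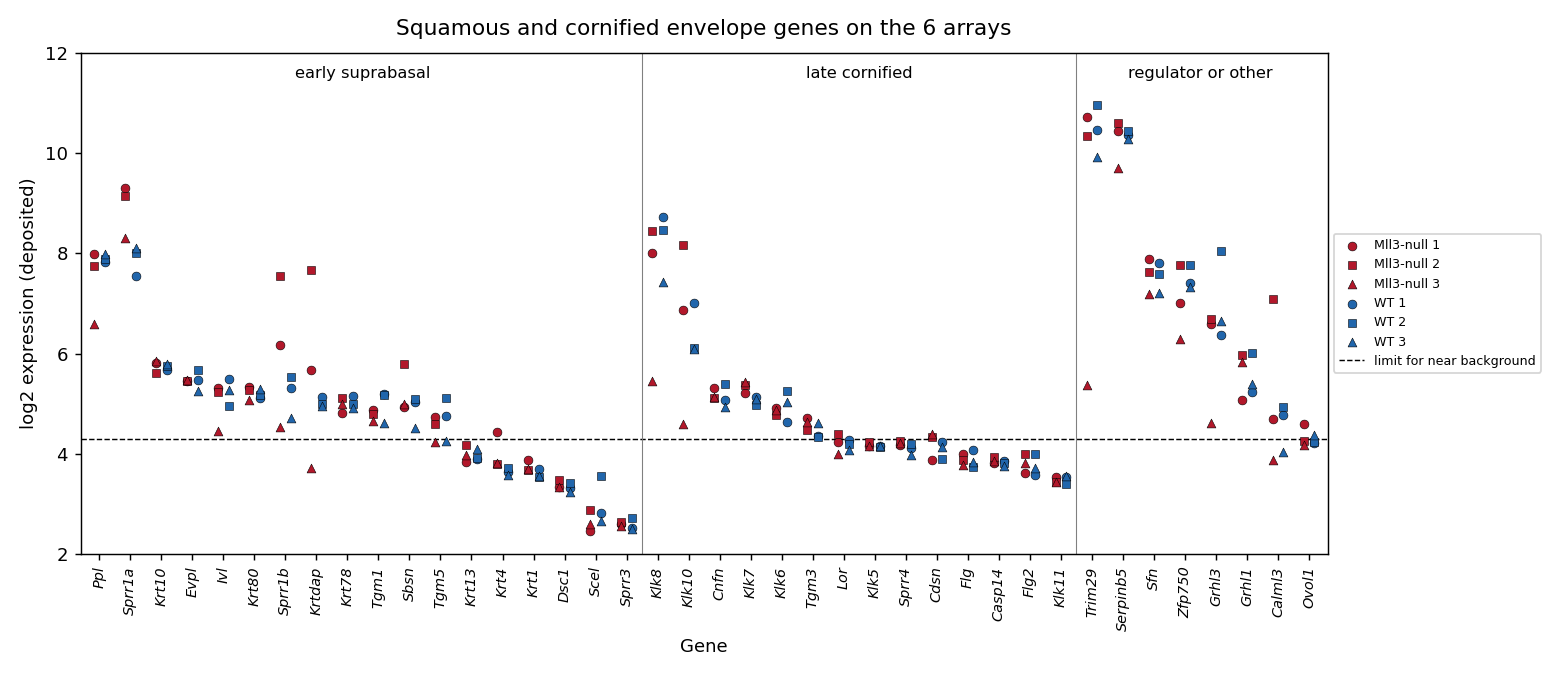
Log2 expression (vertical axis) of each of the 40 genes (horizontal axis), 1 point per array, with Mll3-null arrays in red left of WT arrays in blue and the background limit of 4.29 as a dashed line. Genes are ordered within each stage by their WT mean. Of the 14 late cornified genes 8 lie below the limit by both group means, and the Mll3-null arrays spread widely for Trim29, Klk8, Klk10, Krtdap, Sprr1b and Calml3.

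The comparison of Mll3-null with WT cells asked what loss of MLL3 does to these genes. No member passed the correction over all genes, and neither did any other gene. With limma's moderated test, 0 of the 40 had an adjusted p under 0.05, against 0% of all genes, and the lowest adjusted p among them was 0.84. Before correction, 2 members had a p under 0.05, Sprr1a and Klk7, which is 5.0% of them against 4.93% of all genes. Without Mll3-null replicate 3 the counts were 4 of the 40 members and 858 of the 22180 genes. Those members included Krtdap and Klk10, each highest on Mll3-null replicate 2, while Klk7 no longer had a p under 0.05. The groups did not overlap for 3 members (Sprr1a, Klk7 and Krt4, each higher in Mll3-null cells), a share of 7.5% against 10.7% of all genes, of which 5.44% were higher and 5.31% lower. A higher mean in Mll3-null cells was seen for 25 of the 40, or 62.5%, against 51.5% of all genes. The median difference was 0.03 log2 units over the 40 genes and 0.01 over all genes. In whole-organoid RNA, fewer cells of a type and less RNA per cell cannot be told apart.

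By group means, Sprr1a (2.5% of the 40) was at least 2-fold higher in Mll3-null cells, against 0.532% of all genes. Trim29 and Grhl3 (5% of the 40) were at least 2-fold lower, against 0.622%. Above background the shares were 3.85% higher and 7.69% lower for the 26 members, against 0.854% and 0.999% for all such genes. Without Mll3-null replicate 3 the differences of Trim29 and Grhl3 were 0.08 and -0.38, and that of Grhl3 was -0.55 without WT replicate 2, so neither size held without 1 of these arrays. The difference of Sprr1a without that array was 1.34, compared with 1.03 with all 6 arrays.

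**Figure D2:**
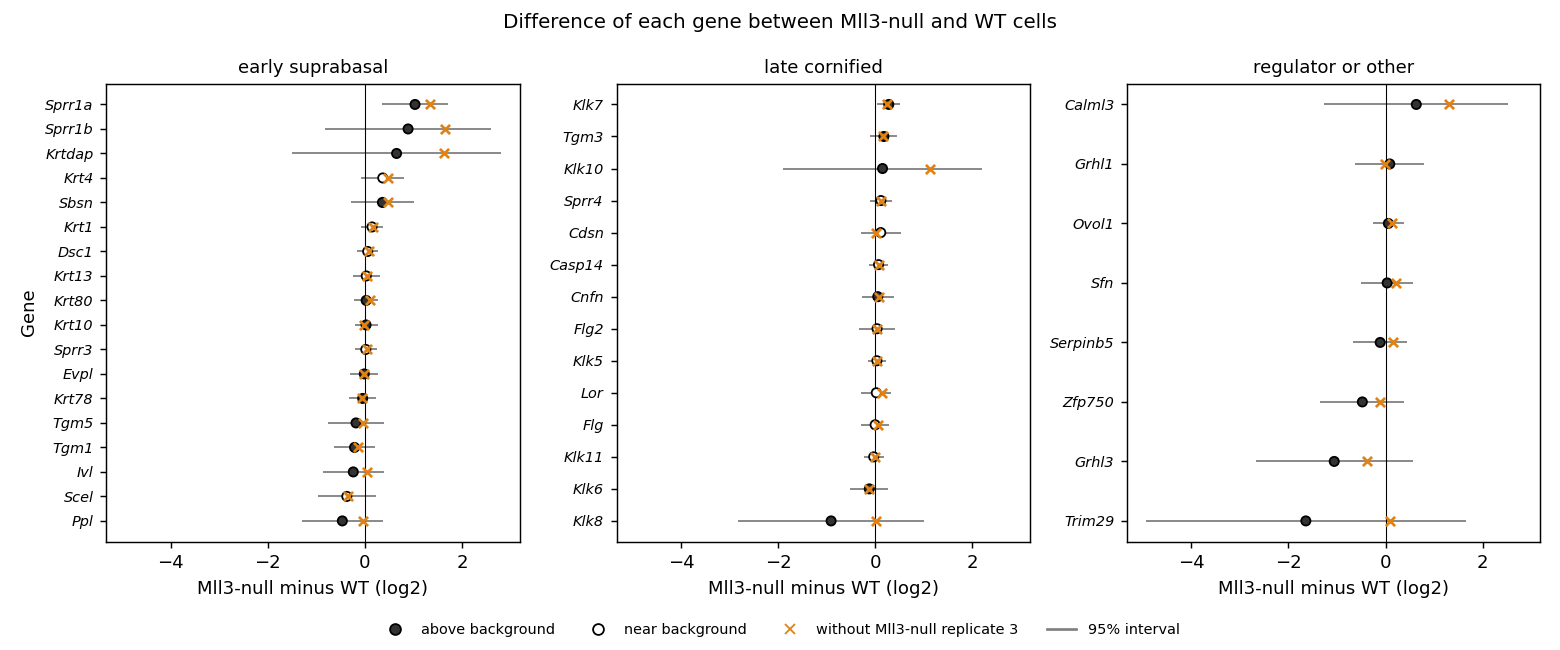
Difference in log2 expression between Mll3-null and WT cells (horizontal axis) for each gene (vertical axis), in 3 panels by stage, with the 95% interval of the moderated test. Filled points are above background and open points near it, and crosses give the difference without Mll3-null replicate 3. Only the intervals of Sprr1a and Klk7 leave out 0, and the crosses of Trim29, Klk8, Klk10, Krtdap, Sprr1b, Grhl3 and Calml3 lie far from their points.

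The suprabasal keratins build the filaments that replace the basal keratin network. Krt1 and Krt10 are the epidermal pair, Krt4 and Krt13 the pair of internal stratified epithelia, and Krt78 and Krt80 are further type II keratins of differentiated epithelia. Krt10 stood at 5.81, 5.61 and 5.86 in Mll3-null cells, against 5.68, 5.74 and 5.78 in WT cells, and its usual partner Krt1 lay near background in both groups. Krt4 read 4.43, 3.79 and 3.81 in Mll3-null cells, against 3.62, 3.72 and 3.57 in WT cells. Each Mll3-null array exceeded each WT array, but only Mll3-null replicate 1 passed the background limit, and the difference was 0.37 ± 0.18 (SE, adjusted p = 0.84, limma), which was 0.16 without Mll3-null replicate 1. Krt13 lay near background, and Krt78 and Krt80 lay between 4.82 and 5.33 on all arrays with differences of -0.04 and 0.03. None of the 6 keratins passed the corrected test or had an unadjusted p under 0.05.

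The small proline-rich proteins are cross-linked precursors of the envelope that are also induced in stressed and wounded epithelia, and Sprr1a had the smallest p of the 40 genes. Sprr1a read 9.31, 9.15 and 8.31 in Mll3-null cells, against 7.56, 8.0 and 8.11 in WT cells. Every Mll3-null array exceeded every WT array, although Mll3-null replicate 3 was only 0.20 above WT replicate 3. The means were 8.92 ± 0.54 in Mll3-null and 7.89 ± 0.29 in WT cells (SD, n = 3 each). The difference of 1.03 ± 0.29 (SE) is 2.05-fold, with a 95% interval from 0.35 to 1.72, an unadjusted p of 0.0097 and an adjusted p of 0.84 (limma). Leaving out each array in turn gave differences from 0.84 to 1.34.

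Sprr1b read 6.16, 7.54 and 4.54 in Mll3-null cells, against 5.32, 5.53 and 4.72 in WT cells. Mll3-null replicates 1 and 2 lay above every WT array and replicate 3 below every WT array, so the groups overlapped. The difference was 0.89 ± 0.71 (SE), 1.66 when Mll3-null replicate 3 was left out and 0.16 without Mll3-null replicate 2. Sprr3, of the same family, lay at the bottom of the scale at 2.49 to 2.71 on all arrays, and Sprr4 lay near background with a difference of 0.12. In the GRCm38.p6 annotation Sprr1b, Sprr3, Sprr1a, Sprr4 and Ivl follow each other on chromosome 3 with 0 protein-coding genes between them. Beside the 1.03 of Sprr1a and the 0.89 of Sprr1b, the differences of Sprr3, Sprr4 and Ivl in this row of genes were 0.02, 0.12 and -0.24, and differences between genes were not tested.

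The promoters of Sprr1a, Sprr1b and Krtdap are shown because these are the 3 early suprabasal genes with the largest positive differences. The 250 bases before each annotated start come from RefSeq (GRCm38.p6), written 5′ to 3′ on the gene's strand. Capitals mark TGANTCA, which takes in the AP-1 site TGA(G/C)TCA but allows any base at N, and TATAAA, the TATA box. The marked matches of Sprr1a and Krtdap read TGAGTCA, and that of Sprr1b reads TGAATCA, outside the stricter AP-1 form. The windows are chr3:92485882-92486131 on the minus strand for Sprr1a, chr3:92438780-92439029 on the minus strand for Sprr1b and chr7:30787655-30787904 on the plus strand for Krtdap.
Sprr1a: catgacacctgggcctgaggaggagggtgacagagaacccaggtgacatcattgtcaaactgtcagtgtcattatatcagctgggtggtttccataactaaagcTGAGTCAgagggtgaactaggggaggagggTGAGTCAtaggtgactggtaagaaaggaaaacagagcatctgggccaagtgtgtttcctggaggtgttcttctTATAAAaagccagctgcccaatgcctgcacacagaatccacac
Sprr1b: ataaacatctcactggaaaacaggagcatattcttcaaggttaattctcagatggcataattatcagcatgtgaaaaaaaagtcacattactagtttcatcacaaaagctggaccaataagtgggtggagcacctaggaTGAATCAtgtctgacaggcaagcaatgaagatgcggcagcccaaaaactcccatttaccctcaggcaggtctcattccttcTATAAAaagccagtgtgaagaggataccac
Krtdap: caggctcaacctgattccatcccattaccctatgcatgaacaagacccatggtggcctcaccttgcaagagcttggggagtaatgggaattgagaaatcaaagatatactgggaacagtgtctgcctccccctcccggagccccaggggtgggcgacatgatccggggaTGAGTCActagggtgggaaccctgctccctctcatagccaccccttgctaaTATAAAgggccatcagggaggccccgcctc

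The Sprr1a window holds 2 TGANTCA matches, beginning 146 and 116 bases before the start, and the windows of Sprr1b and Krtdap hold 1 each, beginning 111 and 81 bases before it. Each window has a single TATAAA, 43, 30 and 30 bases before the start of Sprr1a, Sprr1b and Krtdap. Promoters were found for 30 of the 40 genes, 36 windows in all of the same 250 bases before the start, and TGANTCA occurred on either strand in 12 of them (33.3%), against 6.75% of all 32851 promoter windows. The other genes with a match were Flg, Flg2, Ivl, Krt13, Lor, Sbsn, Scel and Serpinb5, of which several lay near background. TATAAA occurred in 9 of the 36 windows, against 12.4% of all windows. AACNNGTT, the core of the site bound by Grainyhead-like factors such as Grhl1 and Grhl3, occurred in 1 of the 36, that of Sfn, against 3.64% of all windows. The TGANTCA counts take any base at N and were not split by the stricter AP-1 form. These matches describe letters in a short window, and no binding was measured.

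The remaining envelope precursors moved little or on a single array. Ppl, periplakin, which anchors the envelope to keratin filaments, read 7.99, 7.74 and 6.59 in Mll3-null cells, against 7.83, 7.88 and 8.0 in WT cells. Mll3-null replicates 1 and 2 lay close to the WT arrays and replicate 3 more than 1 log2 unit below all others. The difference was -0.46 ± 0.35 (SE) and -0.04 without that array. Its partner Evpl, envoplakin, was even across the arrays at 5.26 to 5.67. Ivl, involucrin, an early scaffold of the envelope, read 5.32, 5.24 and 4.45 in Mll3-null cells, against 5.49, 4.96 and 5.26 in WT cells. Only Mll3-null replicate 3 lay below the WT arrays. Cnfn, cornifelin, differed by 0.05 ± 0.14 (SE). Lor, loricrin, the main protein of the finished epidermal envelope, and Scel, sciellin, lay near background.

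Of the enzymes that cross-link the envelope, Tgm1, the membrane-bound transglutaminase of keratinocytes, read 4.88, 4.8 and 4.66 in Mll3-null cells, against 5.18, 5.17 and 4.62 in WT cells. The Mll3-null arrays lay inside the WT range, and the difference was -0.21 ± 0.17 (SE, adjusted p = 0.85, limma). Tgm5 differed by -0.18 ± 0.24 and Tgm3 by 0.18 ± 0.12. None of these 3 enzymes had groups that did not overlap. The late granular genes Flg and Flg2, which encode filaggrin and its relative and aggregate keratin, and Casp14, the caspase that helps process filaggrin, all lay near background, with differences of -0.0012, 0.04 and 0.07. Dsc1 and Cdsn, a desmosomal cadherin and corneodesmosin of the upper epidermal layers, also lay near background. Over the 14 near-background genes the differences ran from -0.37 for Scel, which was -0.10 without WT replicate 2, to 0.37 for Krt4.

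The kallikreins are secreted serine proteases, several of which shed the cornified layer, and their genes lie in a row on chromosome 7. Klk8 read 8.0, 8.45 and 5.45 in Mll3-null cells, against 8.72, 8.48 and 7.43 in WT cells. Mll3-null replicates 1 and 2 fell inside the WT range and replicate 3 was 1.98 log2 units below the lowest WT array. The difference was -0.91 ± 0.80 (SE) and 0.02 without Mll3-null replicate 3. Klk10 read 6.88, 8.18 and 4.60 in Mll3-null cells, against 7.02, 6.10 and 6.08 in WT cells. Its highest and its lowest array were both Mll3-null, replicates 2 and 3. The difference was 0.15 ± 0.86 (SE), 1.13 when Mll3-null replicate 3 was left out and -0.66 without Mll3-null replicate 2.

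Klk7, a protease of the desquamation cascade, showed the opposite behaviour, a small difference with tight arrays. It read 5.22, 5.37 and 5.42 in Mll3-null cells, against 5.13, 4.96 and 5.08 in WT cells, so that the lowest Mll3-null array exceeded the highest WT array, by 0.09 at the closest. The difference of 0.28 ± 0.10 (SE), or 1.21-fold, had a 95% interval from 0.05 to 0.51, an unadjusted p of 0.025 and an adjusted p of 0.84 (limma). Klk6 differed by -0.12 ± 0.16 (SE). Klk5, which activates Klk7 in the epidermis, and Klk11 lay near background on all arrays. Klk10 and Klk11 are direct neighbours in the annotation, as are Klk8, Klk7, Klk6 and Klk5, yet their spreads were unlike. The Mll3-null arrays spanned 3.00 log2 units for Klk8 and 3.57 for Klk10, compared with 0.21 for Klk7 and 0.10 for Klk11.

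Krtdap and Sbsn encode small secreted proteins of suprabasal keratinocytes and lie with 1 protein-coding gene between them on chromosome 7. Krtdap read 5.66, 7.66 and 3.72 in Mll3-null cells, against 5.13, 5.0 and 4.95 in WT cells. The WT arrays lay within 0.18 of each other while the Mll3-null arrays spanned 3.95 log2 units, on both sides of the WT values. The difference was 0.65 ± 0.90 (SE), 1.64 when Mll3-null replicate 3 was left out and -0.34 without Mll3-null replicate 2. Sbsn read 4.93, 5.79 and 4.99 in Mll3-null cells, against 5.03, 5.09 and 4.51 in WT cells. It too was highest in Mll3-null replicate 2, with a difference of 0.36 ± 0.27 (SE) that was 0.09 without that array.

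Of the 4 transcription factors, Grhl3, Zfp750 and Grhl1 were above background in both groups, while Ovol1 lay at the limit, with means of 4.33 in Mll3-null and 4.27 in WT cells. Grhl3, a Grainyhead-like factor needed for the epidermal barrier, read 6.58, 6.70 and 4.61 in Mll3-null cells, against 6.37, 8.04 and 6.65 in WT cells. An array of each group stood apart, Mll3-null replicate 3 more than 1 log2 unit below all others and WT replicate 2 more than 1 above them. The difference was -1.06 ± 0.67 (SE, adjusted p = 0.84, limma), -0.38 without Mll3-null replicate 3 and -0.55 without WT replicate 2. Zfp750, the mouse counterpart of ZNF750, a zinc finger factor that drives terminal epidermal differentiation in human keratinocytes, read 7.01, 7.77 and 6.29 in Mll3-null cells, against 7.42, 7.76 and 7.33 in WT cells. Mll3-null replicates 1 and 3 lay below the WT arrays and replicate 2 was level with the highest of them, and the difference of -0.48 ± 0.36 (SE) was -0.11 without Mll3-null replicate 3. Grhl1, which regulates desmosomal genes, differed by 0.09 ± 0.30 and Ovol1, a repressor of proliferation in differentiating keratinocytes, by 0.06 ± 0.13.

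The other stratified epithelial genes included the member with the widest spread between arrays. Trim29, a tripartite-motif protein of basal epithelial cells, read 10.72, 10.35 and 5.36 in Mll3-null cells, against 10.47, 10.97 and 9.92 in WT cells. Mll3-null replicates 1 and 2 lay inside the WT range and replicate 3 was 4.55 below the lowest WT array. The difference of -1.64 ± 1.37 (SE, adjusted p = 0.85, limma) was 0.08 without that array. Serpinb5, maspin, a serpin first described in mammary epithelium, read 10.44, 10.61 and 9.71 in Mll3-null cells, against 10.37, 10.44 and 10.28 in WT cells, with the same array lowest but by far less. Sfn, 14-3-3 sigma, a cell cycle and differentiation adaptor of epithelia, was even, at 7.57 ± 0.35 in Mll3-null and 7.53 ± 0.30 in WT cells (SD, n = 3 each). Calml3, a calmodulin-like protein of stratified epithelia, read 4.69, 7.08 and 3.87 in Mll3-null cells, against 4.77, 4.94 and 4.02 in WT cells. Only Mll3-null replicate 2 was high, and the difference of 0.63 ± 0.79 (SE) was -0.30 without it.

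Read array by array, several members set Mll3-null replicates 2 and 3 apart from the rest. In Mll3-null replicate 2, 4 genes (Sprr1b, Klk10, Krtdap and Calml3) lay more than 1 log2 unit above all 5 other arrays, 10% of the 40 against 0.122% of all genes. In Mll3-null replicate 3, 6 genes (Ppl, Klk8, Klk10, Krtdap, Grhl3 and Trim29) lay more than 1 below all 5 others, 15% against 1.33% of all genes. No member stood apart by that much in Mll3-null replicate 1, WT replicate 1 or WT replicate 3, and Grhl3 was the single gene to do so in WT replicate 2. Mll3-null replicate 3 was the lowest array for 16 of the 40 genes, or 40%, against 21.4% of all genes. For the 26 genes above background the median SD was 0.48 in Mll3-null and 0.28 in WT cells, and 20 of them (76.9%) had the larger SD in Mll3-null cells. For all genes above background the median SDs were 0.17 in Mll3-null and 0.14 in WT cells, with 61.1% larger in Mll3-null cells.

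**Figure D3:**
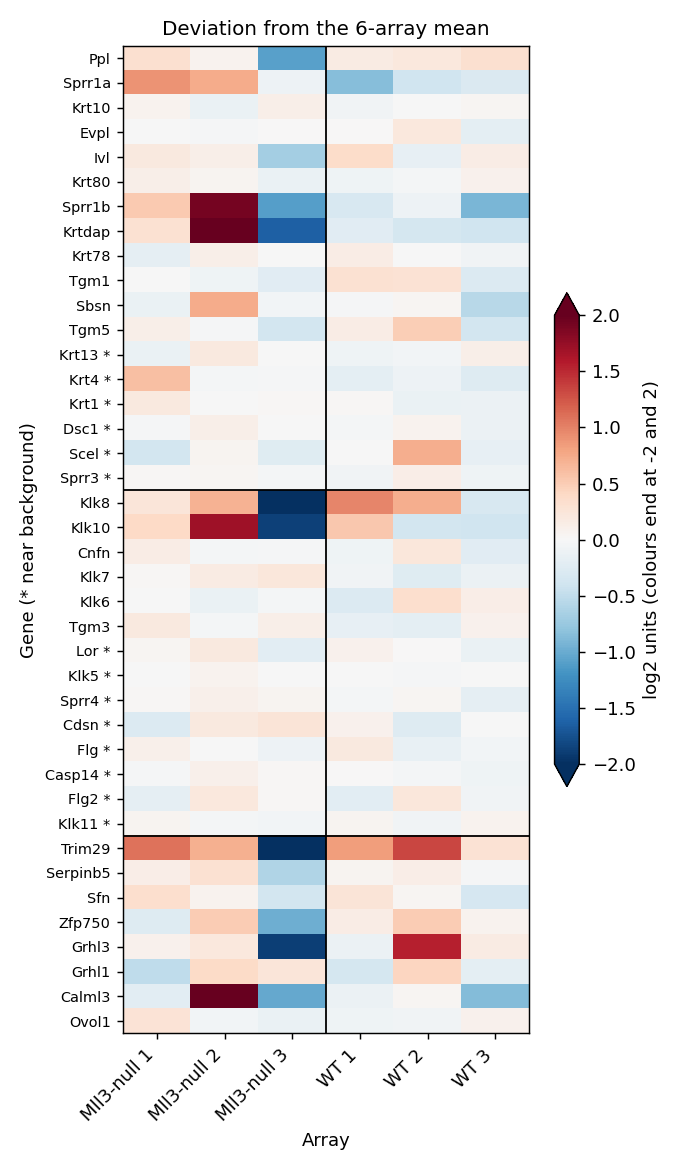
Deviation of each gene (rows) from its own 6-array mean on each array (columns, Mll3-null left of WT), in log2 units by colour, with lines between early suprabasal, late cornified and other genes and asterisks on genes near background. Mll3-null replicate 2 is the highest for Sprr1b, Krtdap, Klk10 and Calml3, Mll3-null replicate 3 is the lowest for Trim29, Klk8, Klk10, Krtdap and Grhl3, and the asterisked rows are pale.

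The basal epithelial markers moved with the low array. Of the 9 measured, 7 were at their lowest in Mll3-null replicate 3. Krt14, the keratin of basal cells, read 12.43, 12.25 and 6.65 in Mll3-null cells, against 12.41, 12.32 and 11.74 in WT cells. Trp63, the p63 factor that maintains stratified and basal identity, read 8.84, 8.25 and 5.02 in Mll3-null cells, against 8.79, 8.04 and 7.86 in WT cells. Their part in the low values of Trim29, Klk8, Klk10, Grhl3, Ppl and Krtdap was not tested. In Mll3-null replicate 2, where Krtdap, Calml3, Sprr1b and Klk10 were high, Krt14 and Trp63 lay within the range of the other Mll3-null and WT arrays. Acta2, a smooth muscle actin of myoepithelial cells, was highest on that array, at 8.76, 10.25 and 5.47 in Mll3-null cells, against 7.96, 7.05 and 8.77 in WT cells. It was the only 1 of the 9 measured basal markers with its highest value there. Cnn1 was highest in WT replicate 3 (5.55, against 4.92 on that array) and Myh11 in Mll3-null replicate 1 (5.29, against 5.16). The part of Acta2 was not tested either.

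**Figure D4:**
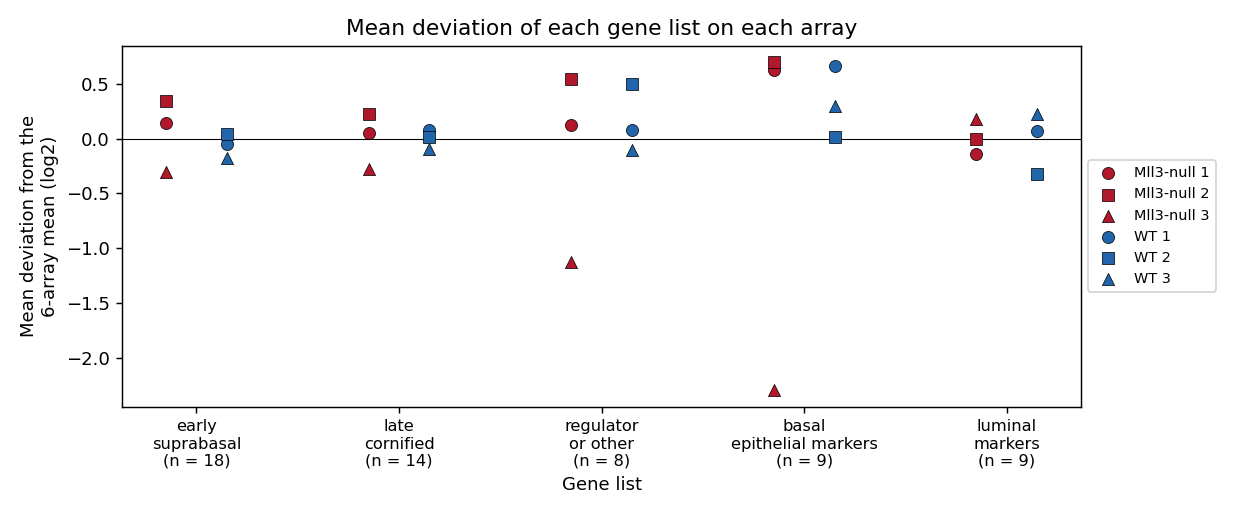
Mean deviation from the 6-array mean (vertical axis, log2 units) of 5 gene lists (horizontal axis, number of genes in brackets), 1 point per array, Mll3-null in red left of WT in blue. Mll3-null replicate 3 lies at -2.29 for basal markers, -1.13 for regulators and other genes, -0.31 for early suprabasal and -0.28 for late cornified genes, and at 0.18 for luminal markers.

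Early suprabasal and late cornified genes were set side by side. Of the 18 early genes 11 had a higher mean in Mll3-null cells, with a median difference of 0.03, and of the 14 late genes 10 did, with a median of 0.05. The single members with an unadjusted p under 0.05 were Sprr1a among the early genes and Klk7 among the late ones. The mean deviation of the early genes was 0.14, 0.34 and -0.31 in Mll3-null replicates 1 to 3, against -0.05, 0.04 and -0.17 in WT replicates 1 to 3. That of the late genes was 0.05, 0.23 and -0.28 in Mll3-null replicates, against 0.08, 0.02 and -0.09 in WT replicates. By these means both stages had the same order among the Mll3-null arrays, replicate 2 highest and replicate 3 lowest. By the means, too, the Mll3-null arrays spanned the whole WT range. Median deviations of the early genes were 0.09, 0.06 and -0.08 on the Mll3-null arrays, against -0.04, -0.01 and -0.14 on the WT arrays. Those of the late genes were 0.03, 0.10 and -0.01, against -0.00097, -0.03 and -0.07. By medians WT replicate 3 was the lowest array for both stages, and the WT range was not spanned. Of these late genes 8 of 14 read near background, where little movement can be seen.

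Further genes of epidermal differentiation were taken from lists of general knowledge. Of 36 other measured genes of the epidermal differentiation complex, the chromosome 3 cluster that holds the Sprr, Lor and Flg genes, 30 lay near background and 0 passed the corrected test in either direction. The 2 with an unadjusted p under 0.05 (5.56%, against 4.93% of all genes), Lce1a1 and Lce1g, lay near background at 2.26 to 2.78. Pglyrp3 had the largest difference of the list and was named here after its values were seen. It read 8.44, 8.19 and 5.25 in Mll3-null cells, against 7.99, 9.23 and 8.55 in WT cells. Its difference of -1.30 ± 0.85 (SE) was -0.27 without Mll3-null replicate 3. Of 19 genes of the epidermal lipid barrier 0 passed. Nipal4, a barrier gene mutated in human ichthyosis, had the smallest p among them, at 6.89, 6.93 and 6.24 in Mll3-null cells, against 7.24, 7.33 and 7.58 in WT cells. Its Mll3-null arrays lay below all WT arrays, with a difference of -0.70 ± 0.21 (SE, adjusted p = 0.84, limma) that was -0.47 without Mll3-null replicate 3. Elovl4, an elongase of very long fatty acids in barrier lipids, read 6.09, 6.11 and 4.74 in Mll3-null cells, against 6.01, 6.55 and 6.85 in WT cells. The groups overlapped, and the difference of -0.82 ± 0.41 (SE) was -0.37 without Mll3-null replicate 3, its lowest array.

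Of 22 further regulators of epidermal differentiation, all above background, 0 passed in either direction. An unadjusted p under 0.05 was seen for 3 of the 22, and the same 3 had no overlap between the groups. Of all genes 4.93% had such a p and 10.7% had groups that did not overlap, and above background these shares were 6.03% and 11.4%. Rora, a nuclear receptor, read 6.26, 6.53 and 7.22 in Mll3-null cells, against 5.96, 6.05 and 6.11 in WT cells. Cebpb, a factor that helps commit keratinocytes to differentiate, differed by 0.34 ± 0.13 and Grhl2, the paralog of Grhl1 and Grhl3, by 0.26 ± 0.10 (SE, adjusted p = 0.84 for each, limma). Without Mll3-null replicate 3 these differences were 0.24 and 0.19, and that of Rora went from 0.63 to 0.35. Grhl2 was thus higher by its values on every Mll3-null array while Grhl3 overlapped. Of the 4 wound and hyperproliferation keratins 0 passed. Krt6b, with the smallest p among them, read 3.83, 4.34 and 3.28 in Mll3-null cells, against 5.40, 7.71 and 3.94 in WT cells, with an overlap at the low WT replicate 3. Krt6a read 10.45, 11.27 and 4.19 in Mll3-null cells, against 10.77, 11.65 and 9.71 in WT cells, low on Mll3-null replicate 3 like Trim29. Krt16, its partner in wounded epidermis and named here after its values were seen, read 5.24, 6.35 and 2.95 in Mll3-null cells, against 5.30, 4.84 and 4.54 in WT cells, highest on Mll3-null replicate 2 and lowest on replicate 3 like Krtdap.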

How the data were processed

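Per the labels' protocols, kit-isolated total RNA was turned into biotinylated cRNA by the standard Affymetrix procedure. Affymetrix Expression Console is the program named in the submitters' processing notes, and no version, summarization method or genome build was given in the sources used here. On the basis of their range, the deposited values were read as log2 expression: they ran from 1.72 to 13.56 over 41345 probe sets, on a common scale across the 6 arrays. A change in total RNA per cell therefore cannot be seen, and the small number of arrays limits precision.

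Gene names came from the platform annotation, in which 23521 probe sets had 1 symbol and 1814 had several and were not used. The probe set with the highest mean stood for a gene, leaving 22180 genes. The comparison used limma 3.58.1 under R 4.3.3, a two-sided moderated test with genotype alone in the model, with Benjamini-Hochberg adjustment over all genes, a threshold of 0.05 and no filter on dim genes. Differences are Mll3-null minus WT. The script was tested on simulated data. Both groups carry replicate numbers 1 to 3, which the labels do not link to a shared line or day. The members, stages and lists were chosen with earlier results of these data known. Every member was to be accounted for. All arrays were to be given for members above background with an unadjusted p under 0.05, groups apart or a 2-fold difference. Others were added after their values were seen. Of further lists, at most 3 genes of smallest p or defining markers were to be named, and some were added after their values were seen. Alternatives covered the spread model, array weights, a dim filter, normalization, centring, probe set choice, replicate block, threshold, background limit and each array left out.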

Additional observations from a re-analysis of the deposited data

How the results depend on the processing

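No member and no other gene was called under any of the 15 alternatives, each at an adjusted p of 0.05 except the alternative that raised it to 0.1, and the lowest adjusted p of a member was 0.31, without Mll3-null replicate 1. Genes with an unadjusted p under 0.05 numbered 1093 in the fit described, 2742 without Mll3-null replicate 1, 716 without Mll3-null replicate 2 and 2504 with array weights; for members these counts ran from 1 to 4. Under these alternatives Sprr1a stayed positive, from 0.84 to 1.34, as did Klk7, from 0.23 to 0.34. The median difference over the 40 genes was as low as -0.01 among the alternatives, and it was 0.06 without Mll3-null replicate 3. The deviations of same-numbered arrays had correlations of 0.03, 0.08 and 0.31 over genes, not every pair over 0.1, and Mll3-null replicate 1 correlated best with WT replicate 2 (0.22). With the replicate block 0 genes were called and 1 member, Sprr1a, had an unadjusted p under 0.05. With a background limit of 4, 9 genes lay near background in place of 14. With array weights the differences of Krt10, Krt78 and Serpinb5 turned to -0.055, 0.023 and 0.10, and median centring turned Sprr3 to -0.0021. Leaving out each array in turn changed the sign for 22 of the 40 genes, whose differences ran as follows: Calml3 from -0.30 to 1.30, Cnfn from -0.045 to 0.18, Evpl from -0.11 to 0.089, Flg from -0.075 to 0.10, Flg2 from -0.059 to 0.16, Grhl1 from -0.085 to 0.36, Ivl from -0.40 to 0.040, Klk10 from -0.66 to 1.13, Klk6 from -0.29 to 0.013, Klk8 from -1.48 to 0.018, Krt10 from -0.024 to 0.10, Krt13 from -0.058 to 0.11, Krt78 from -0.12 to 0.035, Krt80 from -0.025 to 0.10, Krtdap from -0.34 to 1.64, Lor from -0.073 to 0.13, Ovol1 from -0.068 to 0.14, Serpinb5 from -0.29 to 0.16, Sfn from -0.13 to 0.22, Sprr3 from -0.020 to 0.090, Tgm5 from -0.41 to 0.019, Trim29 from -2.60 to 0.081. The cause was not tested.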
